A study of Mus musculus with 5 samples.

Results

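Immediate early response genes were read in whole blood as 10 genes: Fos, Fosb, Jun, Junb, Jund, Egr1, Dusp1, Ier2, Zfp36 and Atf3. They were chosen by name, with earlier results of these data known. Every probe set whose platform annotation gave exactly 1 symbol, and that symbol 1 of these, was taken. This gave 12 probe sets, 2 each for Jun and Jund and 1 for each other gene, of 34945 probe sets that stood for 18193 genes. Affymetrix arrays were run on blood of adult females of 2 F1 crosses, with 3 arrays of the (DBA/2J x FVB/NJ)F1 cross (DBAxFVB F1) and 2 arrays of the (AKR/J x FVB/NJ)F1 cross (AKRxFVB F1). All 5 samples share the FVB/NJ parent, had no treatment named beyond Avertin anaesthesia before death, and came from heart puncture. The series asked which genes differ in basal blood expression between the genotypes. Whether each array stands for its own animal is not given in the sources used here, so the p-values rest on variation among these samples that could be technical alone. Values are on a log2 scale, on which a step of 1 is a fold of 2, and differences are DBAxFVB F1 minus AKRxFVB F1.

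Immediate early genes are transcribed within minutes of a stimulus, without new protein synthesis, when signalling kinases act on transcription factors already bound at their promoters. Many encode transcription factors: Fos and Jun proteins pair to form AP-1, Egr1 encodes a zinc finger factor and Atf3 a stress-induced relative of the CREB family. Others close the response, such as Dusp1, a phosphatase that inactivates MAP kinases, and Zfp36, which encodes tristetraprolin, a protein that binds AU-rich elements of cytokine mRNAs and promotes their decay. In blood leukocytes these transcripts are known to respond to adhesion, stress and handling as well as to inflammatory signals.

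The promoters of Fos, Dusp1, Zfp36 and Atf3 are shown because they are the members with the highest readings relative to the other arrays on DBAxFVB F1 array 3 for which a promoter was matched. Promoter sequence of 8 of the 10 genes was matched in the RefSeq table of build GRCm38.p6, and the 250 bases before the annotated start were searched on both strands. The motifs were the cAMP response element TGACGTCA, its core TGACG, the AP-1 element TGACTCA, the TATA box TATAAA and the CArG box of serum response elements. Capitals mark matches, and each core inside a full cAMP response element overlaps it.
Fos, chr12:85473640-85473889, plus strand: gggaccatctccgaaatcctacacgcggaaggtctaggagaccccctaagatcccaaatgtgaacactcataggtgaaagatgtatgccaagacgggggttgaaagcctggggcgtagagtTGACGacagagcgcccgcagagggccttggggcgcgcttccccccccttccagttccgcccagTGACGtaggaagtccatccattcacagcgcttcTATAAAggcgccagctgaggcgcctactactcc
Dusp1, chr17:26508473-26508722, minus strand: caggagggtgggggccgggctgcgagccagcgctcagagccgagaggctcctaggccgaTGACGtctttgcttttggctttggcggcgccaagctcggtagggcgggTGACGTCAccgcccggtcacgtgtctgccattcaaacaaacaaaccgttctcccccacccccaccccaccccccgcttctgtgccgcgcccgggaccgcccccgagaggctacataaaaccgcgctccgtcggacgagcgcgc
Zfp36, chr7:28379229-28379478, minus strand: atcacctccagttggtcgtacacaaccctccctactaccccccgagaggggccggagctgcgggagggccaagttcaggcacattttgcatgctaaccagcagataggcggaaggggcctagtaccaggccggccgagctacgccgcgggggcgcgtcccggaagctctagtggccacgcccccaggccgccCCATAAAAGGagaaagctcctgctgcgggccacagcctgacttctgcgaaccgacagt
Atf3, chr1:191183334-191183583, minus strand: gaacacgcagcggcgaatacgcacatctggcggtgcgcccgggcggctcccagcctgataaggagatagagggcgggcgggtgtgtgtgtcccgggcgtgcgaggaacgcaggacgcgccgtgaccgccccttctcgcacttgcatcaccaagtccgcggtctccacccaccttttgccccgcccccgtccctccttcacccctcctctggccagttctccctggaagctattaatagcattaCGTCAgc

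Fos held the core from 129 and from 66 bases before the start and a TATA box from 33 bases before it. Dusp1 held a full cAMP response element from 143 bases before the start and a further core from 191 bases before it, Atf3 a core on the other strand from 7 bases before it, and Zfp36 a CArG box from 58 bases before it. Fosb and Junb each held a core as well, so that 5 of the 8 promoters had one, against 17.8% of 32851 promoters of the same length. The full element was in 1 of the 8 and in 1.55% of all, the CArG box in 1 and 1.47%, the TATA box in 1 and 12.4%, and the AP-1 element in 0 and 4.46%. A match is a run of letters and not evidence of binding.

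Across the arrays, Fos, Egr1, Zfp36 and Atf3 read highest on DBAxFVB F1 array 3, each above the next array by more than the range of the other 4 arrays, and Dusp1 read highest there by 1.95, against a range of 1.96. Fosb, Jun, Junb, Ier2 and the dimmer Jund probe set stayed within 0.36 of the mean of the other arrays, and the brighter Jund probe set was lower there. Between the crosses no member passed the test, and without that array the differences of Fos, Egr1 and Dusp1 lay between -0.055 and 0.026. Those of Zfp36 and Atf3 were then -0.12 and -0.22.

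Before the members, some facts of the arrays bear on the values. Array 3 of DBAxFVB F1 stood apart in the hybridisation controls, transcripts added before hybridisation, whose median over 18 probe sets was 7.99 on it, against 10.01 and 10.07 on the other arrays of its cross and 10.08 and 10.12 on the AKRxFVB F1 arrays. The excess of 3-prime over 5-prime signal, which grows as RNA degrades, was 1.32 there for Actb, against 0.82 and 0.68 on the other DBAxFVB F1 arrays and 1.22 and 1.03 on the AKRxFVB F1 arrays. For Gapdh it was 1.33 there, against 0.62 and 0.58 on the other DBAxFVB F1 arrays and 1.04 and 0.73 on the AKRxFVB F1 arrays. On it, bright probe sets read low against the mean of the other 4 arrays. The median deviation was -0.44 at a mean of 5 to 8, -1.13 at 8 to 10 and -0.77 at 10 to 15. For probe sets of 2 to 3 and of 3 to 5 it was 0.013 and 0.026. The part of these values in the results below was not tested. Alas2, the erythroid enzyme of haem synthesis, read 13.53, 13.57 and 13.50 on the DBAxFVB F1 arrays and 13.45 and 13.59 on the AKRxFVB F1 arrays, and no file gives a limit of detection for low values.

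**Figure D1:**
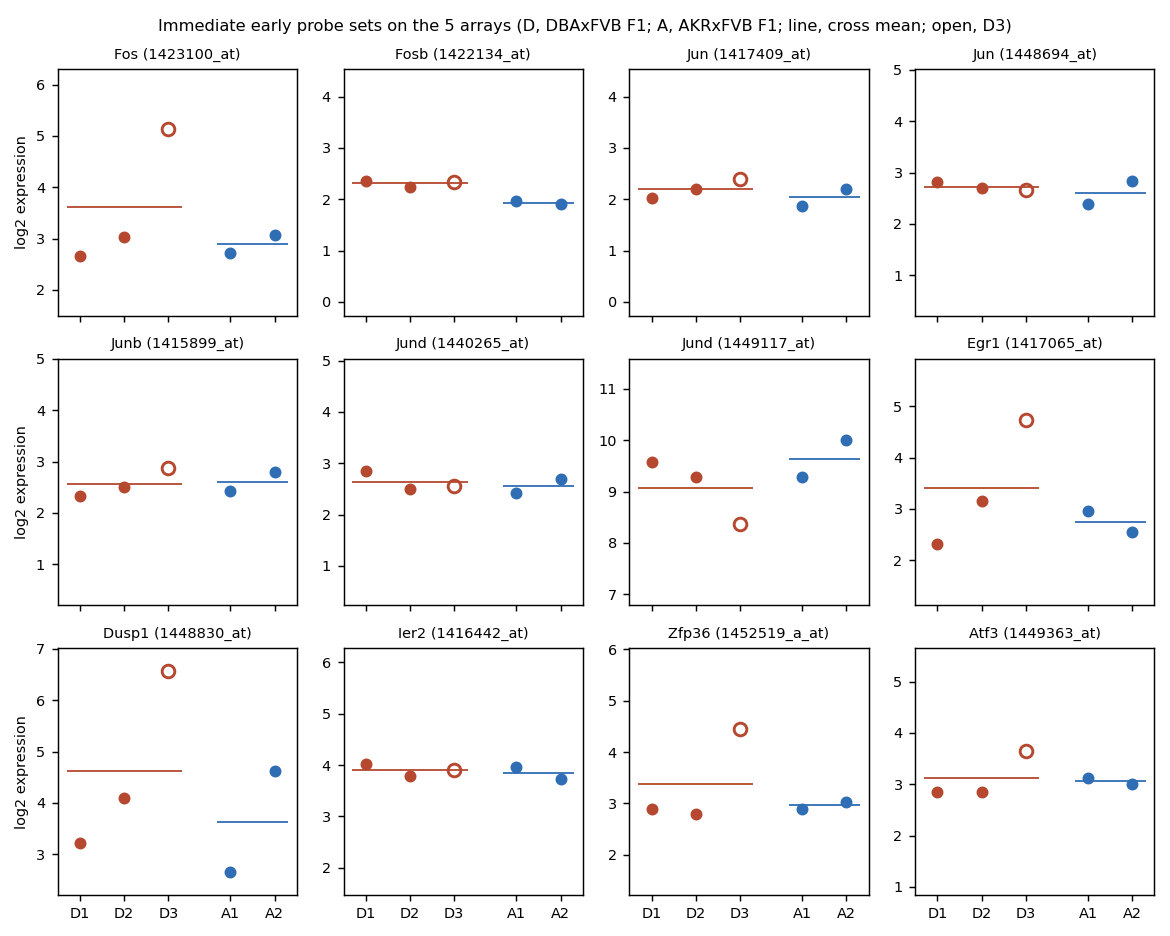
Log2 expression (y axis, each panel spanning the same range) of the 12 probe sets on the 3 DBAxFVB F1 arrays (D1 to D3, red) and the 2 AKRxFVB F1 arrays (A1 and A2, blue). Lines are the means of each cross and the open symbol is DBAxFVB F1 array 3, which is far above the other 4 arrays for Fos, Egr1, Dusp1 and Zfp36 and below them for the Jund probe set 1449117_at.

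Fos, whose protein pairs with Jun proteins in AP-1, read 2.66, 3.02 and 5.13 on DBAxFVB F1 arrays 1 to 3, against 2.73 and 3.07 on the AKRxFVB F1 arrays. Array 3 was alone in being high, and the other 4 arrays lay within 0.41 of each other. It exceeded their mean by 2.26, a 4.80-fold difference, and the highest of them by 2.07. The cross means were 3.61 ± 1.34 (SD, n = 3) and 2.90 ± 0.24 (SD, n = 2), with a difference of 0.71 ± 0.64 (SE; limma adjusted p = 0.726). Without array 3 the difference was -0.055, so its direction turned.

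Fosb, a close relative of Fos, showed another pattern. It read 2.36, 2.24 and 2.33 on the DBAxFVB F1 arrays, against 1.96 and 1.90 on the AKRxFVB F1 arrays, and array 3 fell between the others of its cross. This was the only member probe set whose groups did not overlap, being higher in DBAxFVB F1, as 14.6% of all 45037 probe sets were, and 0 members were lower without overlap, against 11.1%. Its mean was under the filter on low values, so it was not in the test; fitted without a filter its difference was 0.38 ± 0.12 (SE), with an unadjusted p of 0.00951 and a limma adjusted p of 0.415.

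The Jun family members, the partners of Fos proteins, did not read high on array 3 as Fos did. The Jun probe set 1448694_at read 2.81, 2.71 and 2.66 on the DBAxFVB F1 arrays and 2.39 and 2.83 on the AKRxFVB F1 arrays, and 1417409_at read 2.02, 2.20 and 2.395, against 1.87 and 2.20. The ranges of the crosses overlapped in both, and the second was under the filter. Junb, which encodes a Jun protein with weaker activating capacity in many settings, read 2.33, 2.51 and 2.87 on the DBAxFVB F1 arrays and 2.43 and 2.79 on the AKRxFVB F1 arrays. Array 3 was the highest of the 5 by 0.080, less than the range of 0.46 over the other arrays.

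Jund, the most steadily expressed Jun gene in many tissues, gave unlike values in its 2 probe sets. The probe set 1449117_at read 9.59, 9.28 and 8.37 on the DBAxFVB F1 arrays, against 9.28 and 10.0004 on the AKRxFVB F1 arrays, so array 3 was the lowest, by 0.91. Its difference between the crosses was -0.56 ± 0.47 (SE; limma adjusted p = 0.709), the smallest p among the member probe sets that passed the filter, and it was 0.031 after quantile normalization. On array 3 it lay -1.16 from the mean of the other 4 arrays, while 63.3% of the 343 probe sets whose mean on those arrays was 8 to 10 lay at least 1 below theirs. After quantile normalization that deviation was -0.098 and after cyclic loess normalization -0.040. The probe set 1440265_at read 2.85, 2.503 and 2.55, against 2.42 and 2.70, with overlapping ranges and a difference of 0.075 ± 0.17.

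Egr1, the zinc finger factor, read 2.32, 3.16 and 4.73 on the DBAxFVB F1 arrays, against 2.96 and 2.55 on the AKRxFVB F1 arrays. Array 3 exceeded the highest other array by 1.57 and their mean by 1.98, a 3.95-fold difference, and arrays 1 and 2 of its cross enclosed both AKRxFVB F1 values. The difference between the crosses was 0.65 ± 0.59 (SE; limma adjusted p = 0.727) and, without array 3, -0.012.

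Atf3, the stress-induced factor, read 2.85, 2.85 and 3.65, against 3.13 and 3.001. Its excess on array 3 was smaller, at 0.69 over the mean of the other 4 arrays and 0.52 over the highest. The 2 other DBAxFVB F1 arrays were below both AKRxFVB F1 arrays, and the difference between the crosses was 0.050 ± 0.26 with array 3 and -0.22 without it.

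Among the members that shut the response down, Dusp1 varied most. It read 3.23, 4.10 and 6.56 on the DBAxFVB F1 arrays, against 2.66 and 4.62 on the AKRxFVB F1 arrays. Array 3 exceeded the mean of the other 4 arrays by 2.91, a 7.54-fold difference, which was the highest such deviation of all 45037 probe sets in the deposited values and number 4 after cyclic loess normalization. The other 4 arrays themselves spanned 1.96, and array 3 exceeded the highest of them, AKRxFVB F1 array 2, by 1.95. The cross means were 4.63 ± 1.73 (SD, n = 3) and 3.64 ± 1.39 (SD, n = 2), with a difference of 0.99 ± 0.94 (SE; limma adjusted p = 0.734). That difference was 0.026 without DBAxFVB F1 array 3, 0.012 without AKRxFVB F1 array 1 and 1.97 without AKRxFVB F1 array 2.

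Zfp36, the tristetraprolin gene, read 2.89, 2.80 and 4.45 on the DBAxFVB F1 arrays, against 2.89 and 3.04 on the AKRxFVB F1 arrays. The other 4 arrays lay within 0.24 of each other, and array 3 exceeded their mean by 1.54, a 2.92-fold difference. Between the crosses the difference was 0.42 ± 0.46 (SE; limma adjusted p = 0.769), and -0.12 without array 3. Ier2, an early gene named for its rapid induction, read 4.02, 3.79 and 3.90, against 3.97 and 3.73, and array 3 differed from the mean of the others by 0.019.

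**Figure D2:**
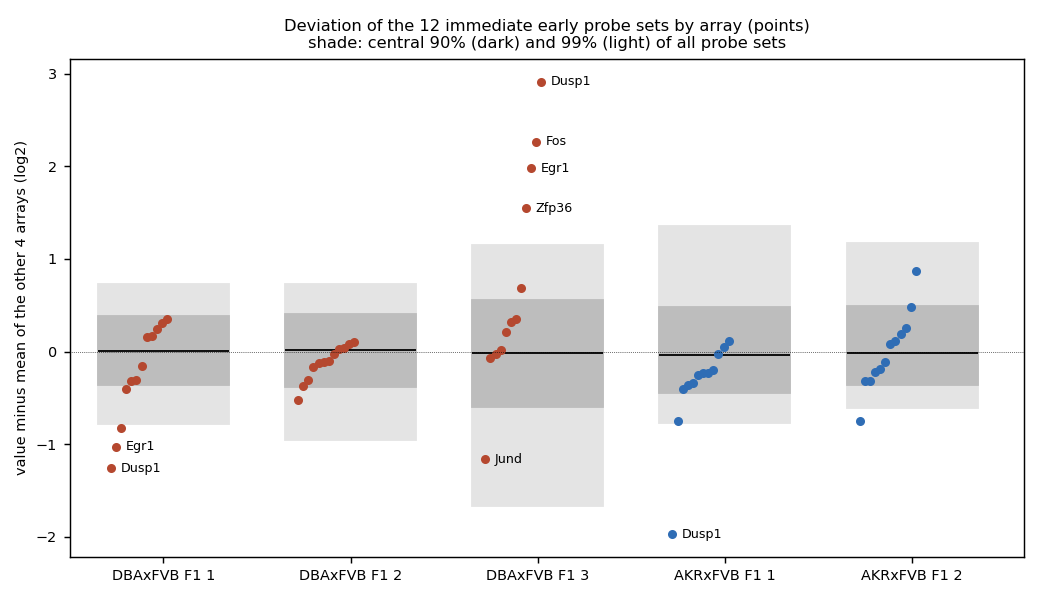
Deviation of each member probe set from the mean of the other 4 arrays (y axis, log2) on each array (x axis); the dark and light bands hold the central 90% and 99% of all 45037 probe sets and the bar is their median. On DBAxFVB F1 array 3, Dusp1, Fos, Egr1 and Zfp36 lie above the light band, whose upper end is 1.15; because that array enters the mean for the other arrays, it lowers those genes' points there.

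Read as a set, 4 of the 12 member probe sets lay at least 1 above the mean of the other arrays on DBAxFVB F1 array 3, against 0.873% of all probe sets, or 393 in number, and 1 lay at least 1 below, against 2.35%. The same 4 lay at least 1 above the highest of the other arrays, against 0.426% of all. Among probe sets whose mean on the other 4 arrays was 2 to 5, where 11 of the members fell, 0.935% lay at least 1 above. On that array 7 of 12 were the highest of the 5 arrays, against 24.2% of all, and 1 was the lowest, against 24.9%. By rank among 45037 deviations, Dusp1 was number 1, Fos 11, Egr1 23, Zfp36 84 and Atf3 1303, while Fos was number 33 after quantile normalization and 28 after cyclic loess normalization. After quantile normalization and after cyclic loess normalization the same count of members, 4, lay at least 1 above, against 1.23% and 1.05% of all probe sets. On the other DBAxFVB F1 arrays and on both AKRxFVB F1 arrays, 0 members lay at least 1 above. The shares of all probe sets were 0.113% and 0.104% on DBAxFVB F1 arrays 1 and 2 and 1.39% and 0.899% on the AKRxFVB F1 arrays. Array 3 enters the mean used for those arrays and lowers Fos, Egr1, Dusp1 and Zfp36 there, so the count of 0 is partly fixed by construction. There is 1 such array, so these values have no replicate and no test. The members were chosen with earlier results of these data known, so the shares are description and support no claim about the set.

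Between the crosses, 10 of the 12 probe sets had a higher mean in DBAxFVB F1, as 55.8% of all did, and the member median was 0.14, against 0.029 over all probe sets. That member median was 0.22 without DBAxFVB F1 array 1, 0.063 without AKRxFVB F1 array 1 and 0.34 without AKRxFVB F1 array 2, and 0.25 with 1 probe set per gene. With arrays 1 and 2 alone on the DBAxFVB F1 side, 6 of 12 were higher, as 57% of all were, and the median was 0.0070, against 0.033 over all. Of the 10 member probe sets that passed the filter, 0 reached a limma adjusted p below 0.05, which 0% of the 22519 tested did. At an unadjusted p below 0.05, 0 members were called in either direction, against 3.59% of tested probe sets higher and 6.79% lower. The smallest unadjusted p among them was 0.272. With 2 arrays against 3, an exact permutation test of a single value cannot give a p under 0.1.

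**Figure D3:**
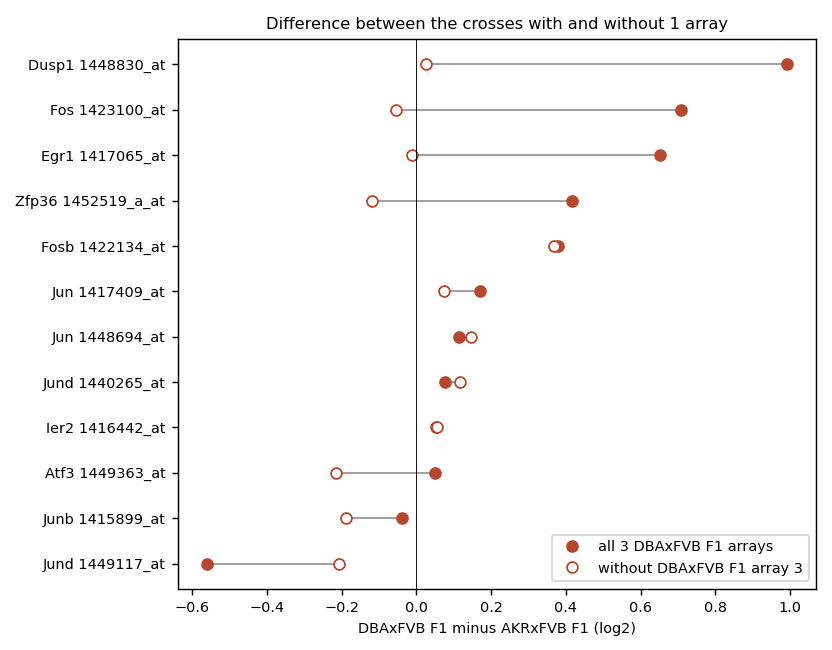
Difference between the crosses (x axis, log2) for each member probe set, with all 3 DBAxFVB F1 arrays (filled) and without array 3 (open). Dusp1, Fos, Egr1 and Zfp36 move from between 0.42 and 0.99 to between -0.12 and 0.026.

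The companion list held 49 further early, feedback and stress genes, each by 1 probe set, and all were on the array. On array 3 of DBAxFVB F1, 27 were above and 22 below the mean of the other arrays, and the list median was 0.035. Of them 1 lay at least 1 above and 2 at least 1 below, against 0.873% and 2.35% of all probe sets. The highest were Cebpb, a leucine zipper factor of myeloid cells, Socs3, an inhibitor of cytokine signalling, and Nr4a3, an orphan nuclear receptor, at 1.02, 0.88 and 0.80. Cebpb read 2.60, 2.89 and 3.94 on the DBAxFVB F1 arrays, against 3.23 and 2.96 on the AKRxFVB F1 arrays. Gadd45a, a growth arrest gene, Btg1, an antiproliferative gene, and Dusp2, another phosphatase of MAP kinases, were the lowest at -1.63, -1.002 and -0.56. The means of these genes lay between 5 and 8, where the median deviation over all probe sets was -0.44 on that array. The other arrays are of both crosses, so a difference between the crosses enters these deviations. Against arrays 1 and 2 of its own cross, array 3 differed by 1.19 for Cebpb, 0.88 for Socs3 and 0.74 for Nr4a3. By that measure Gadd45a lay at -1.66, Btg1 at -0.30 and Dusp2 at -0.53. Zfp36l1 and Mcl1 lay at 0.77 and 0.78, against 0.051 and -0.053 from all other arrays. The list was not counted by that measure.

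Between the crosses, the companion genes had 28 higher and 21 lower in DBAxFVB F1 and a median of 0.051. Over all probe sets 55.8% were higher and the median was 0.029. Of 42 tested, 0 passed, 0 were higher at an unadjusted p below 0.05 and 6 were lower, against 6.79% of tested probe sets lower. Btg1 read 7.18, 6.85 and 6.71 on the DBAxFVB F1 arrays, against 8.55 and 8.27 on the AKRxFVB F1 arrays, without overlap (difference -1.50 ± 0.33, SE; limma adjusted p = 0.193). Zfp36l1, a relative of tristetraprolin, differed by -1.19 ± 0.30 and Mcl1, a survival factor of the BCL2 family, by -1.41 ± 0.42, with limma adjusted p of 0.246 and 0.320. In these 3 genes every DBAxFVB F1 array was below every AKRxFVB F1 array, as in 11.1% of all probe sets. They were picked from the list for the smallest p, so that lack of overlap adds no support. Pan-leukocyte markers were lower in DBAxFVB F1 as well, in 5 of 5 genes, with a median of -1.50, against 0.029 over all probe sets. Of them, 4 were lower at an unadjusted p below 0.05, against 6.79% of tested probe sets. B cell markers were lower in 5 of 6, with a median of -0.84, while 55.8% of all probe sets had a higher mean in DBAxFVB F1. T cell markers were lower in 6 of 7 (median -0.38) and monocyte markers in 4 of 7 (median -0.44). Neutrophil markers went the other way, higher in 7 of 9 (median 0.16). Ptprc, the leukocyte antigen CD45, read 7.24, 6.26 and 6.65 on the DBAxFVB F1 arrays, against 8.34 and 8.09 on the AKRxFVB F1 arrays. No gene of these marker lists passed, and their part in the companion and upstream genes that were lower was not tested.

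Upstream kinases and factors were described for 16 of 20 listed genes. Their median was -0.073 between the crosses, with 12 of 16 lower, while 55.8% of all probe sets were higher. Of 15 tested, 0 passed and 3 were lower at an unadjusted p below 0.05, against 6.79% of tested probe sets. Creb1, which encodes the factor that binds cAMP response elements, read 4.03, 3.76 and 3.75 on the DBAxFVB F1 arrays, against 5.56 and 5.09 on the AKRxFVB F1 arrays (difference -1.48 ± 0.24, SE; limma adjusted p = 0.136). Rps6ka3, a ribosomal S6 kinase, differed by -1.11 ± 0.18 and Elk4, a partner of serum response factor, by -0.74 ± 0.26. On array 3 the list median lay -0.043 from the mean of the other arrays. There 1 gene lay at least 1 above and 1 at least 1 below, against 0.873% and 2.35% of all probe sets. These 2 genes were Mapk9, a JNK kinase, at 1.02 and Atf2, a partner of Jun in DNA binding, at -3.28. The value of Atf2 was the lowest deviation of all 45037 probe sets in the deposited values. Both genes are named here after their values were seen. Atf2 read 6.05, 6.16 and 2.88 on the DBAxFVB F1 arrays, against 5.13 and 7.30 on the AKRxFVB F1 arrays.

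Dimerisation partners of AP-1 proteins had a median of 0.0027 between the crosses over 9 measured genes, and 0 of 8 tested passed. Batf2, a leucine zipper factor, differed by 0.53 ± 0.22 (SE; limma adjusted p = 0.466), Maf by 0.10 ± 0.24 and Batf by 0.084 ± 0.21. On array 3 their median was 0.046.

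Messenger RNAs known to be bound by tristetraprolin had a median of 0.12 between the crosses over 12 genes, and 0 of 8 tested passed. Il1b differed by 0.32 ± 0.18 (SE), Il2 by 0.30 ± 0.19 and Tnf by 0.44 ± 0.30. On array 3 the list median was 0.0091, and 2 genes, Tnf and Cxcl2, lay at least 1 above the mean of the other arrays, against 0.873% of all probe sets. Tnf, a cytokine of activated monocytes, read 2.83, 3.07 and 3.92 on the DBAxFVB F1 arrays, against 2.80 and 2.86 on the AKRxFVB F1 arrays. Cxcl2, a neutrophil chemokine named here after its values were seen, read 2.32, 1.99 and 4.79, against 2.25 and 2.24, and its deviation of 2.58 was number 2 of all probe sets in the deposited values, after Dusp1. The other 10 genes lay between -0.26 and 0.33.

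**Figure D4:**
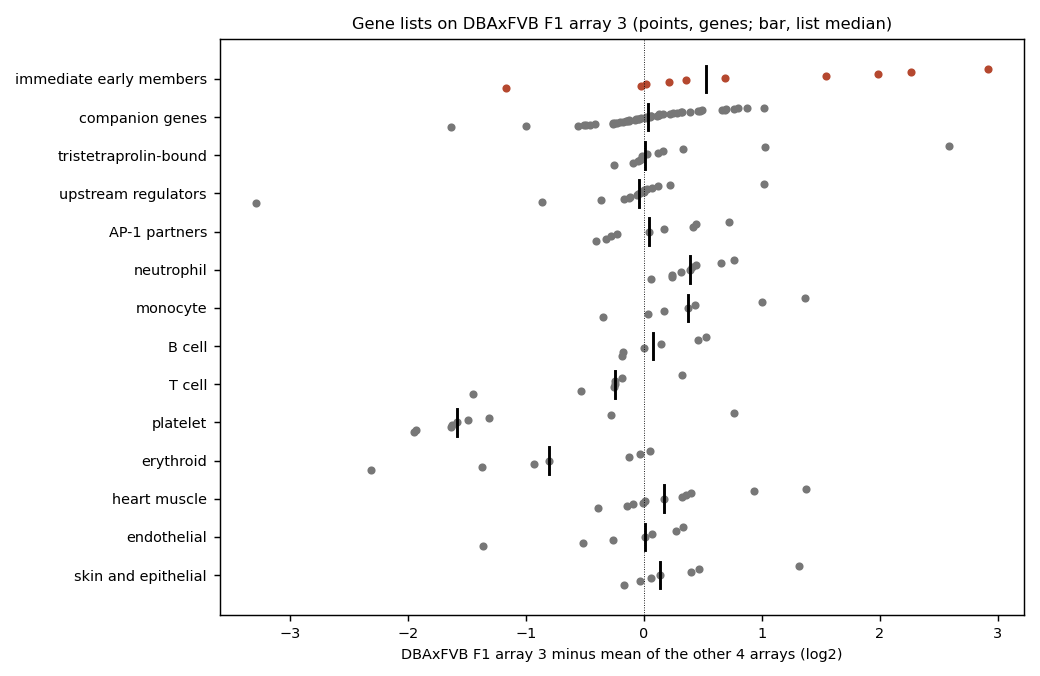
DBAxFVB F1 array 3 minus the mean of the other 4 arrays (x axis, log2) for each gene (points) of each list (rows), with the list median as a bar. The pan-leukocyte list is not shown. The immediate early members reach from -1.16 to 2.91, while the medians of the platelet and erythroid lists are -1.58 and -0.81.

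Blood cell markers also differed on the same array. In bulk blood, fewer cells of a type and less RNA per cell cannot be told apart. Over all probe sets, bright ones also read low on this array, with a median deviation of -0.44 at a mean of 5 to 8. That median was -1.13 at 8 to 10 and -0.77 at 10 to 15, and its part in the markers below was not tested. Pan-leukocyte markers were below the mean of the other arrays on array 3 in 5 of 5 genes, with a median of -0.54. Their median level was 5.99, 5.52 and 5.78 on the DBAxFVB F1 arrays and 7.15 and 6.95 on the AKRxFVB F1 arrays. Neutrophil markers were above the mean of the other arrays on array 3 in 9 of 9 genes measured, with a median of 0.39, and their median level was 3.87, 3.505 and 4.41 on the DBAxFVB F1 arrays and 4.22 and 3.66 on the AKRxFVB F1 arrays. Monocyte markers were above in 6 of 7, with a median of 0.38, among them Cd14, the lipopolysaccharide co-receptor, at 1.36 and Csf1r, the receptor of macrophage colony-stimulating factor, at 0.999. Their median level was 4.66, 4.599 and 5.14 on the DBAxFVB F1 arrays and 5.71 and 4.71 on the AKRxFVB F1 arrays. Platelet markers were below in 8 of 9, with a median level of 7.31, 7.53 and 5.84 on the DBAxFVB F1 arrays and 6.89 and 7.89 on the AKRxFVB F1 arrays. Erythroid markers were below in 6 of 7 and T cell markers in 6 of 7 (median -0.25). B cell markers were above in 4 of 6 (median 0.075). The B cell median level was 4.07, 4.01 and 4.83 on the DBAxFVB F1 arrays and 5.85 and 4.62 on the AKRxFVB F1 arrays. By that level array 3 was above both other arrays of its cross, while the mean of the other 4 arrays takes in both crosses.

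Markers of other tissues that heart puncture can bring were read as well. The heart muscle list was above the mean of the other arrays on array 3 in 7 of 11 genes, of which 3 read highest there, with a median of 0.17. Its median level was 2.87, 2.52 and 2.74 on the DBAxFVB F1 arrays and 2.49 and 2.47 on the AKRxFVB F1 arrays. Ttn, the giant spring protein of muscle, read 4.61 on that array, against 2.91 to 3.57 on the others, and Myh7, a slow muscle and cardiac myosin, 4.05, against 3.02 to 3.29. The cardiac genes Myh6 and Nppa, which encode a cardiac myosin and a natriuretic peptide, read 2.49 and 2.69 on that array, against 2.01 to 2.87 and 2.17 to 2.47 on the others. Myh6, Actc1, Tnni3, Tnnc1, Myl2, Myl7 and Ryr2 read highest on DBAxFVB F1 array 1, with Myl2 at 3.93 there and 2.74 on array 3. Endothelial markers were above in 4 of 7 and below in 3, with a median of 0.013. Skin and epithelial markers were above in 5 of 7 and below in 2, with a median of 0.14. Epcam, an epithelial adhesion gene, lay furthest above among them, at 4.66, against 2.95 to 3.53. The part of these tissue markers and of the blood cell lists in the values of Fos, Egr1, Dusp1 and Zfp36 was not tested.

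By likeness of pattern, the 5 genes nearest to Fos were Tnrc6a, Hdlbp, Snrnp27, Zdhhc7 and Ccr10. Likeness was the root mean square difference of values centred on their own mean over the 5 arrays, among 12420 genes, and it was 0.052, 0.061, 0.11, 0.13 and 0.16 for these. Egr1 was number 37 at 0.30 and Zfp36 number 46 at 0.33, followed by Dusp1 at 461 and Atf3 at 890, while Junb was number 2329, Jun 7722, Ier2 7871 and Jund 8813. Tnrc6a read 4.86, 5.11 and 7.32 on the DBAxFVB F1 arrays and 4.89 and 5.15 on the AKRxFVB F1 arrays. It was picked for likeness to Fos on these same 5 arrays, so a high value on array 3 alone was fixed by that choice.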

How the data were processed

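Labelled RNA of whole blood was hybridised to 5 arrays, grouped by the cross in the source label. Per the labels' protocols, RNA was extracted with Trizol and amplified with a kit. The values the authors deposited, already normalized, were taken as log2 expression from their range of 1.29 to 14.8; no label states the base. MAS5 and RMA are named, per the submitters' processing notes; which of them gave these values is not given in the sources used here, and low values may be compressed.

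Of 45101 probe sets, 64 controls were left out, and the 22519 with a mean over the arrays of at least 2.51, the median, were tested with limma 3.58.1 in R 4.3.3 (lmFit, eBayes with a variance trend, 1 term for the cross, residual degrees of freedom 3, two-sided, Benjamini-Hochberg over all). The step was checked on simulated data. The number of arrays limits the precision. Errors are SD or limma's moderated SE. A gene in a list was represented by the brightest of its tested probe sets by mean. Named were all members, the 3 genes of smallest p in each pathway list, the 3 highest and 3 lowest companion genes on array 3, and the 5 genes most like Fos; genes of the marker lists, Cxcl2, Atf2 and Mapk9 were named after their values were seen. Members and lists were chosen with earlier results of these data known. Gene identifiers matched to the GRCm38.p6 gene table changed 0 of 34741 symbols. Alternatives were other normalizations, filters and variance models, array weights, a block by replicate number, and each array left out. Python 3.11.15, pandas 2.3.3 and matplotlib 3.10.9 were used.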

Additional observations from a re-analysis of the deposited data

How the results depend on the processing

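Limma called 0 probe sets and 0 members at an adjusted p below 0.05 under every normalization, filter, variance model, weighting and omission run. At an unadjusted p below 0.05 it called 2337 probe sets and 0 members. With the filter at the 75th percentile the median difference of the members was 0.42 and their median deviation on array 3 was 1.54. Array 3 enters the mean that this filter uses, so a high value there helps a member to pass, and these 2 medians support nothing. The median of the companion genes was 0.0081 after median centring and, leaving out single arrays, ranged from -0.013 to 0.063.

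Several differences between the crosses, none of which passed, changed sign when single arrays were omitted: Fos ranged from -0.055 to 1.18, Jun from -0.11 to 0.33, Junb from -0.22 to 0.14, Egr1 from -0.012 to 1.19, Ier2 from -0.069 to 0.17, Zfp36 from -0.12 to 0.71 and Atf3 from -0.22 to 0.18. After cyclic loess normalization Ier2 was -0.0087 and Atf3 -0.017, with array weights Atf3 was -0.10, and after quantile normalization Jund was 0.031. With the replicate block, in which array 3 of DBAxFVB F1 has no partner, Fos was -0.055, Egr1 -0.012, Zfp36 -0.12 and Atf3 -0.22. Deviations from the cross mean correlated at -0.26 for the arrays numbered 1 and 0.17 for those numbered 2, over tested probe sets. With 2 AKRxFVB F1 arrays their deviations mirror each other, so these values cannot show whether the numbers pair the arrays. The cause of the changes in sign was not tested, apart from the block leaving out array 3 by its construction. The depth of signal limits the low members, which lie near the filter.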
